A study of Arabidopsis thaliana with 12 samples.

Results

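AT2G40980, AT2G26110, AT5G14910 and AT4G33540 are 4 protein-coding loci of *Arabidopsis thaliana* whose probes rose in the *psae1* mutant relative to wild type (WT). Each was taken from 1 probe listed with that gene alone, out of 3439 probes in all. All 4 passed the filter on measured values, with a value above 0 in all 12 samples. They came from the 10 largest rises among single-gene probes, at places 2, 3, 6 and 9 of 67 called rises, so the size of the difference chose them and is given as a description with no test. AT1G24240 stood 1 place above AT4G33540, at 0.54 on the log2 scale. The last of the 10 was PSAN, at 0.52, and the first beyond them was AT5G55580, also at 0.52. The gene table gives the 4 loci no descriptive symbol, so no function is given for them here.

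The data were array intensities of total RNA from 6 *psae1* and 6 WT samples, numbered 1 to 6 in each genotype, all of the Columbia 0 ecotype. The *psae1* plants lack the photosystem I protein PSI-E1. The labels give no tissue, plant age, growth condition or construct, and do not say that samples came from separate plants. Neither PSAE1, the mutated gene, nor its paralogue PSAE2 had a single-gene probe, and the genotypes therefore rest on the labels alone.

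Photosystem I is the chlorophyll-protein complex of the thylakoid membrane that passes electrons from plastocyanin to ferredoxin. Its PSI-E subunits lie on the stromal side, near the place where ferredoxin docks. Most photosystem I subunits and most other chloroplast proteins are encoded in the nucleus, and nuclear transcript levels are known to respond to the state of the chloroplast.

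The summed intensity per sample was 3436 to 3564 in *psae1* and 3611 to 3678 in WT, with 153 to 168 and 139 to 145 probes at 0. Intensities were put on the log2 scale and centred on each sample's median, so a difference below is read against the probe at the median, and centring raised it by 0.25. The number of arrays limits the precision. Numbers 1 and 2, 3 and 4, and 5 and 6 deviated together within each genotype, which leaves fewer independent samples than 12. Nothing in the labels says whether such a pair is 2 readings of 1 array, in which case n would be 3 per genotype in place of 6, and the SDs, SEs and p-values below would hold reading noise together with the spread between samples. The samples numbered 5 and 6 had array weights of 0.40 and 0.39 in *psae1* and 0.81 and 0.72 in WT, and the other 8 samples had higher weights, up to 2.09. Of 3279 tested probes, 748 were called in either direction (22.8%) and 391 were called higher in *psae1* (11.9%; limma, adjusted p under 0.05), and the 4 genes, chosen on this contrast, were all among the latter. With numbers averaged in those pairs 38 of 3272 probes were called higher (1.16%), and 0 of the 4 genes. Adding a block for the pair to these averages gave 135 of 3272 (4.13%), with 3 of the 4 genes among them, all but AT5G14910.

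The 4 genes were higher in *psae1* by 1.45-fold to 1.52-fold after centring. Sizes this close follow from their choice among the largest rises. The rise was not spread alike over the sample numbers. AT2G40980, AT2G26110 and AT5G14910 rose most between the samples numbered 5 and 6, by 1.88-fold, 2.02-fold and 2.06-fold. AT4G33540 rose most between those numbered 1 and 2, by 1.73-fold, and least between 5 and 6, by 1.28-fold. AT5G14910 was lower in *psae1* in the comparison of number 3. In RNA of whole samples, more cells of a type and more RNA per cell cannot be told apart.

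AT2G40980 had a deposited intensity of 2.86 at the lowest, 3.09 at the median and 4.44 at the highest in *psae1* samples, against 2.42, 2.69 and 2.81 in WT samples. The lowest *psae1* sample thus lay above the highest WT sample. The mean was 3.44 ± 0.69 in *psae1* and 2.65 ± 0.16 in WT (SD, n = 6 each), and the 2 highest *psae1* samples were numbers 5 and 6, at 4.19 and 4.44. After centring the difference was 0.60 ± 0.12 (SE), or 1.52-fold, and without centring it was 0.36, or 1.28-fold.

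AT2G26110 had an intensity of 1.62, 1.74 and 2.05 at the lowest, median and highest in *psae1* samples, against 1.17, 1.47 and 1.59 in WT samples. Here too the genotypes did not overlap. The mean was 1.79 ± 0.16 in *psae1* and 1.41 ± 0.18 in WT (SD, n = 6 each), and the centred difference was 0.60 ± 0.10 (SE), or 1.52-fold. Without centring it was 0.35, or 1.28-fold. Numbers 5 and 6 were the highest samples in *psae1*, at 2.05 and 1.91, and the lowest in WT, at 1.17 and 1.202, so both genotypes widened the difference there.

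AT5G14910 had an intensity of 0.271, 0.368 and 0.403 at the lowest, median and highest in *psae1* samples, against 0.220, 0.289 and 0.369 in WT samples. The genotypes overlapped, since the lowest *psae1* sample and the highest WT sample were both number 3, at 0.271 and 0.369. The mean was 0.356 ± 0.046 in *psae1* and 0.287 ± 0.054 in WT (SD, n = 6 each). The centred difference was 0.57 ± 0.13 (SE), or 1.48-fold, and without centring it was 0.32, or 1.25-fold. Its probe was the dimmest of the 4, at a brightness percentile of 20.4 among the tested probes.

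AT4G33540 had an intensity of 0.682, 0.760 and 1.10 at the lowest, median and highest in *psae1* samples, against 0.593, 0.671 and 0.729 in WT samples. As deposited the genotypes overlapped, and after centring they did not. The mean was 0.832 ± 0.170 in *psae1* and 0.671 ± 0.050 in WT (SD, n = 6 each), with *psae1* numbers 1 and 2 highest, at 0.990 and 1.10. The centred difference was 0.54 ± 0.10 (SE), or 1.45-fold, and without centring it was 0.29, or 1.22-fold.

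**Figure D1:**
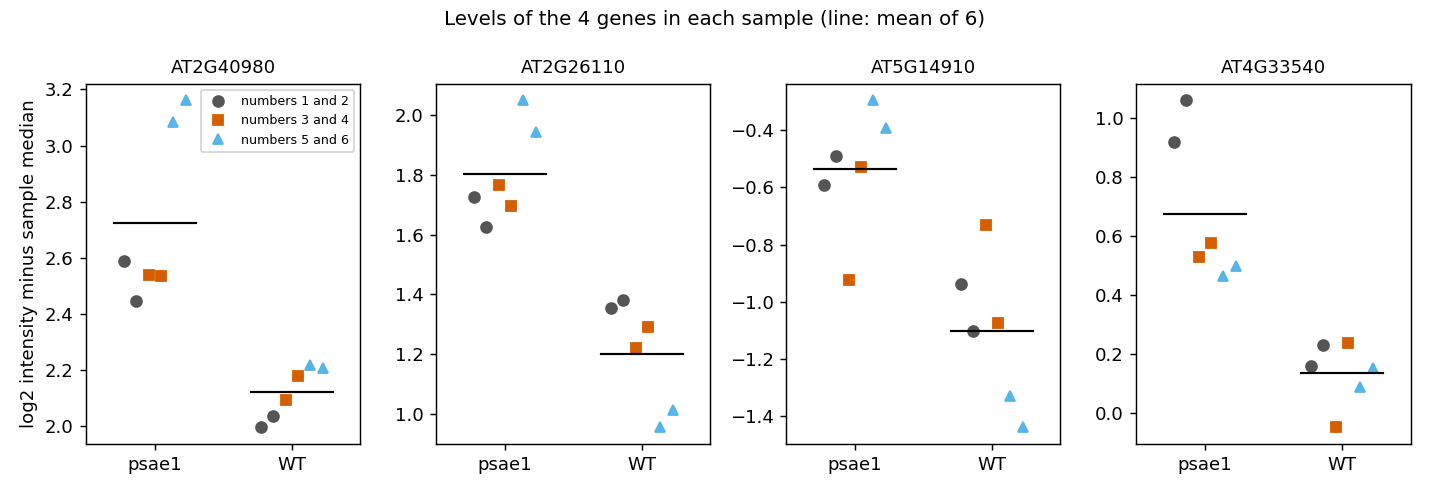
Log2 intensity minus the sample median (vertical axis) of the 4 genes in each *psae1* and WT sample, with symbols for the sample numbers and a line at the mean of 6. The *psae1* samples of AT2G40980 numbered 5 and 6 and those of AT4G33540 numbered 1 and 2 lie apart from the other 4, and the genotypes overlap only for AT5G14910, in number 3.

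After centring, all *psae1* samples lay above all WT samples for 3 of the 4 genes, and for 220 of 3257 probes with a value in every sample (6.75%). Without centring this held for AT2G40980 and AT2G26110, and for 38 of the 3257 probes (1.17%). All 6 same-numbered comparisons were higher in *psae1* for the same 3 genes after centring, and for 575 of the 3257 probes (17.7%). These counts were part of the contrast that chose the genes. The order of size was AT2G40980, AT2G26110, AT5G14910 and AT4G33540, and the distance of 0.07 from the largest to the smallest was under 1 SE of any of them, so neighbours in that order do not differ beyond their spread.

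Which sample pair carried the rise was then compared. For AT2G40980 the same-numbered differences of *psae1* minus WT on the centred log2 scale were 0.59, 0.41, 0.44, 0.36, 0.86 and 0.95 in numbers 1 to 6. The last 2 stood above the first 4. For AT2G26110 they were 0.37, 0.25, 0.55, 0.41, 1.10 and 0.93, again with numbers 5 and 6 above the rest. For AT5G14910 they were 0.35, 0.61, −0.19, 0.55, 1.04 and 1.05, the widest span of the 4 genes. For AT4G33540 they were 0.76, 0.83, 0.58, 0.34, 0.38 and 0.35, with numbers 1 and 2 on top.

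**Figure D2:**
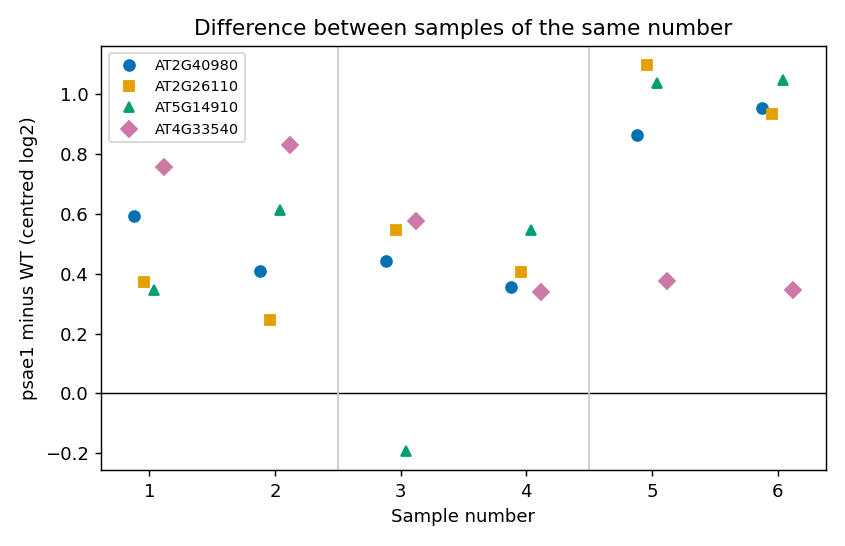
Same-numbered difference of *psae1* minus WT in centred log2 intensity (vertical axis) by sample number, with grey lines between the number pairs. Numbers 5 and 6 are highest for AT2G40980, AT2G26110 and AT5G14910 and low for AT4G33540, and AT5G14910 is at −0.19 in number 3.

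The spread of these 6 differences put AT4G33540 and AT2G40980 first in steadiness, with SDs of 0.22 and 0.25. AT2G26110 followed at 0.34 and AT5G14910 at 0.46. The SDs lay at percentiles of 62.9, 73.8, 89.5 and 96.7 among all probes with a value in every sample, so none of the 4 differences was among the steadier ones of the array. In units of the gene's own mean difference, the SD was 40.7% for AT4G33540, 41.6% for AT2G40980, 56.5% for AT2G26110 and 82.1% for AT5G14910. The median SD of probes in the same brightness decile was 0.16 for AT4G33540, AT2G40980 and AT2G26110, and 0.21 for AT5G14910.

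**Figure D3:**
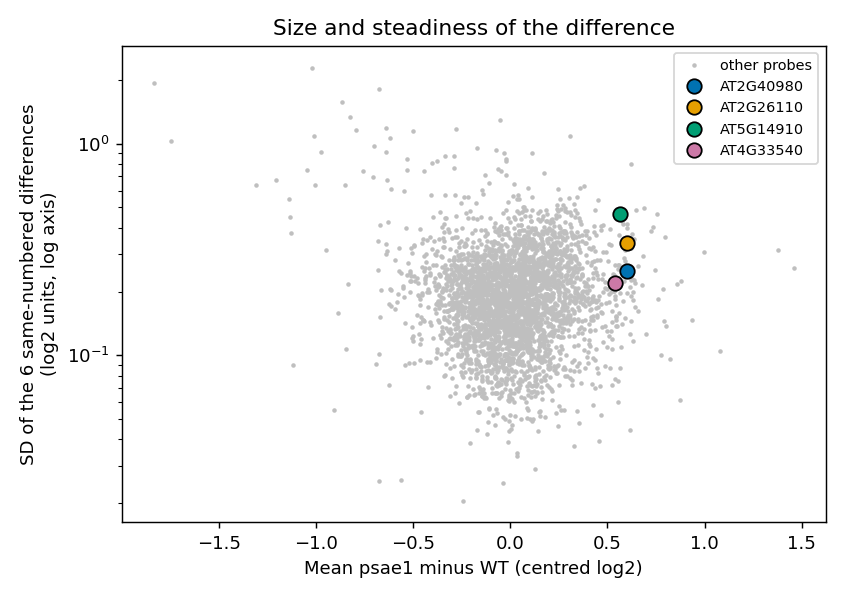
Mean of *psae1* minus WT in centred log2 intensity (horizontal axis) against the SD of the 6 same-numbered differences (vertical log axis) for all probes, with the 4 genes in colour. The 4 genes, chosen among the largest rises, lie close together in size, at 0.54 to 0.60, and apart in SD, at 0.22 to 0.46.

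The genes were chosen on the mean difference, not on differences among the number pairs. That mean holds every pair, so 1 high pair also raised a gene's place among the rises. Differences among the pairs were set over all probes in a fit with terms for number pair and for odd against even number. The pairs were grouped because their numbers deviate together in these data, and the spread within a pair may be reading noise alone. The p therefore describes how far the pair means lie apart against the spread within pairs, and does not show that the rise differs between plants. On that scale the pair means of all 4 genes were apart, with limma adjusted p of 0.020 for AT2G40980, 0.010 for AT2G26110, 0.028 for AT5G14910 and 0.034 for AT4G33540. Of 3257 probes 1587 did so (48.7%), so such a spread was common on the array. With 1 number left out, AT2G26110 passed each time. AT2G40980 did not pass without number 6 (limma adjusted p = 0.094), AT5G14910 not without 1, 2 or 5 (0.063 to 0.092), and AT4G33540 not without 1, 2, 5 or 6 (0.068 to 0.18). The number of probes called was then 424 to 1493. The pair means for numbers 1 and 2, 3 and 4, and 5 and 6 were 0.50, 0.40 and 0.91 for AT2G40980. They were 0.31, 0.48 and 1.01 for AT2G26110, 0.48, 0.18 and 1.04 for AT5G14910, and 0.79, 0.46 and 0.36 for AT4G33540. Numbers 5 and 6 were highest in 35 of the 67 called single-gene rises, numbers 3 and 4 in 22, and numbers 1 and 2 in 10.

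Odd and even numbers were not told apart. Odd minus even differences were 0.06 ± 0.08 for AT2G40980, 0.14 ± 0.06 for AT2G26110, −0.34 ± 0.14 for AT5G14910 and 0.07 ± 0.08 for AT4G33540 (SE). None passed, with limma adjusted p of 0.94 to 0.96, and 0 of 3257 probes did (0%), against 152 at an unadjusted p under 0.05. For AT5G14910 the widest gap within a pair was between numbers 3 and 4, at −0.19 and 0.55. Without number 3 it was −0.14 (limma adjusted p = 0.999).

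The excess in numbers 5 and 6 was not on the same side of the comparison in each gene. For AT2G40980 the centred *psae1* level was 2.52, 2.54 and 3.12 in the 3 number pairs, and the WT level was 2.02, 2.14 and 2.21, so the height lay in *psae1*. For AT2G26110 the *psae1* level was 1.68, 1.73 and 1.997 and the WT level 1.37, 1.25 and 0.98, so *psae1* was higher and WT lower in numbers 5 and 6. AT5G14910 had the same form, with *psae1* at −0.54, −0.73 and −0.34 and WT at −1.02, −0.90 and −1.39. For AT4G33540 the *psae1* level was 0.99, 0.55 and 0.48, while the WT level moved little, at 0.20, 0.10 and 0.12.

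Probes with nearby numbers moved in the same samples as some of the 4 genes. Among AT2G40980 and the 50 probes on either side of it by number, the median difference of *psae1* minus WT was −0.02, 0.01 and 0.39 in the 3 number pairs. Around AT5G14910 it was 0.06, −0.04 and 0.44. Both genes lie in a stretch of probe numbers where the difference in samples 5 and 6 was high as a whole. AT2G26110 and AT4G33540 lie where this stretch ends, with local medians of −0.04, 0.02 and 0.05, and of 0.02, 0.05 and −0.07. Over the whole array the local medians ran from −0.17 to 0.10 in numbers 1 and 2, from −0.15 to 0.15 in 3 and 4, and from −0.36 to 0.46 in 5 and 6.

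**Figure D4:**
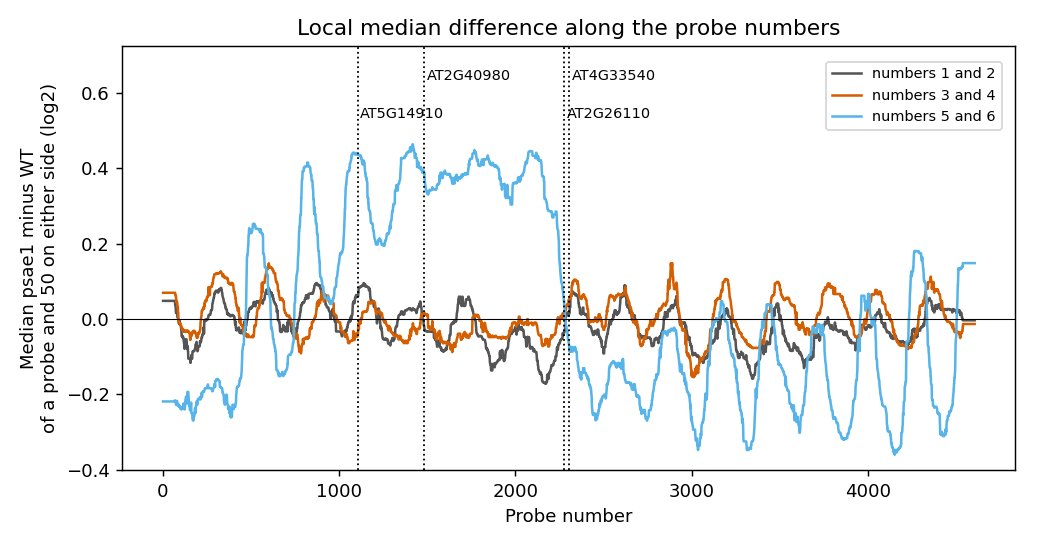
Median *psae1* minus WT difference in centred log2 intensity of each probe and the 50 on either side of it (vertical axis) along the probe numbers (horizontal axis), 1 line for each number pair, with dotted lines at the 4 genes. The line for numbers 5 and 6 runs from −0.36 to 0.46 and is high at AT5G14910 (0.44) and AT2G40980 (0.39), and near 0 at AT2G26110 and AT4G33540.

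With this local drift removed from each sample, all 4 genes stayed higher in *psae1*, by 0.45 for AT2G40980, 0.56 for AT2G26110, 0.41 for AT5G14910 and 0.49 for AT4G33540. All 4, chosen for this rise, were called then, among 423 probes called higher. With numbers averaged in pairs after this removal, added after seeing the data, 0 of the 4 were called, against 87 probes called higher. With drift removed and no averaging, AT2G40980 was the steadiest of the 4, with pair means of 0.49, 0.37 and 0.49 and an SD of 0.09. Its pair means no longer passed (limma adjusted p = 0.49), nor did those of AT5G14910, at 0.43, 0.20 and 0.60 (limma adjusted p = 0.30). AT4G33540 kept pair means of 0.76, 0.39 and 0.31 without passing (limma adjusted p = 0.076). AT2G26110 kept its height in numbers 5 and 6, at 0.33, 0.48 and 0.86, and still passed (limma adjusted p = 0.032). With a window of 21 probes, chosen after seeing the data, it did not (limma adjusted p = 0.081). In that window AT4G33540 had local medians of 0.12, 0.11 and 0.39 and was at 0.30.

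Brightness moved with the result for the 2 brightest probes. AT2G40980 and AT2G26110 had brightness percentiles of 96.0 and 91.2, in the top decile, where the median difference was 0.23 and 153 of 328 probes were called higher. AT4G33540, at a percentile of 68.1, lay in a decile with a median of 0.04 and 27 of 328 called higher. AT5G14910 lay in a decile with a median of −0.06 and 15 of 328 called higher. Its rise ranked 1 there, by the same size that had chosen it. In their own deciles the rise ranked 5 for AT4G33540, 27 for AT2G40980 and 31 for AT2G26110. Quantile normalization, which acts on brightness, put AT2G40980 at 0.35 and AT2G26110 at 0.45, while AT5G14910 and AT4G33540 were at 0.58 and 0.51. AT2G40980 was then not called and the other 3 were. The top decile had medians of 0.21, 0.29 and 0.19 in the 3 number pairs. In numbers 5 and 6 AT2G40980 was at 0.91 and AT2G26110 at 1.01. Whether brightness bears on that height was not tested.

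**Figure D5:**
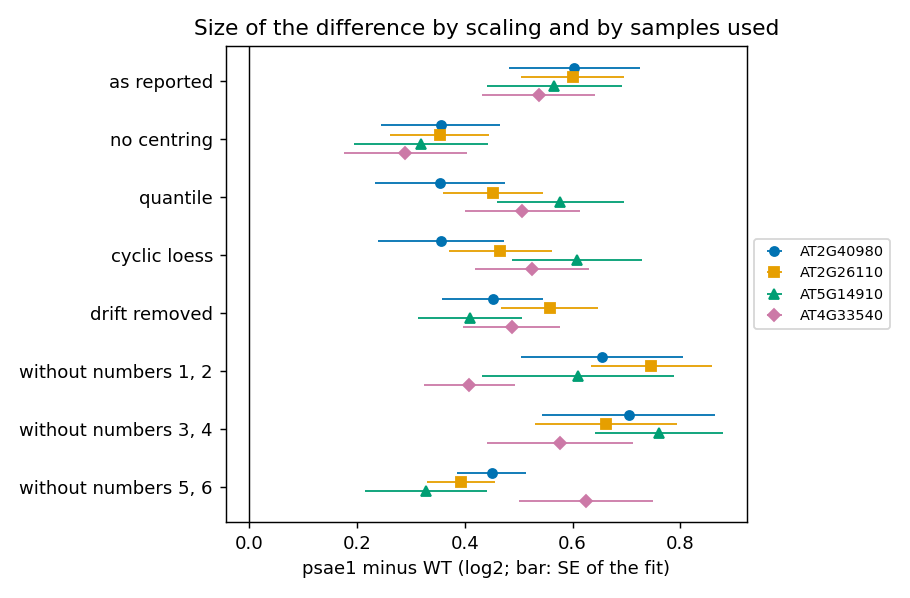
Difference of *psae1* minus WT on the log2 scale (horizontal axis, bars are SE of the fit) of the 4 genes under each scaling and with each number pair left out. All values lie above 0, from 0.29 for AT4G33540 without centring to 0.76 for AT5G14910 without numbers 3 and 4.

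Leaving out numbers 5 and 6 put AT2G40980 at 0.45, AT2G26110 at 0.39 and AT5G14910 at 0.33, and AT4G33540 at 0.63. AT5G14910 was then not called, nor was it without numbers 1 and 2, at 0.61, or with a random block for the number pairs. AT2G40980, AT2G26110 and AT4G33540 were called in each of these fits. Over all probes, 327, 226 and 135 were called higher in them, in that order. Without *psae1* 3 or another single sample, AT5G14910 ranged from 0.50 to 0.64 and stayed called in all 12 omissions, as did the other 3 genes. In these omissions 327 to 394 probes were called higher, and the genes had been chosen among called rises.

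The pattern over the 6 numbers was compared with that of 644 other single-gene probes, by the root mean square of the difference between profiles. The profiles kept their means, so nearness partly restates the size that chose the genes, and the probes named here had mean differences of 0.42 to 0.60. The probe nearest to AT2G40980 was HEMA3, a glutamyl-tRNA reductase of the route to chlorophyll and haem, at 0.07, followed by AT5G55580 at 0.14 and AT2G47360 at 0.15. HEMA3 was also nearest to AT2G26110, at 0.13, followed by AT1G24040 at 0.14 and AT5G55580 at 0.16. AT5G14910 had no such close neighbour, with AT4G16060 at 0.28, AT5G55580 at 0.29 and AT5G56850 at 0.30. AT4G33540 was nearest to AT1G24240, at 0.08, followed by CUTA and LHB1B2, an antenna protein serving photosystem II, both at 0.17. Nearness was taken on centred values alone. With quantile normalization the mean difference was 0.17 for CUTA and 0.07 for LHB1B2, neither of them called. In the same fit AT4G33540 was at 0.51 and AT1G24240 at 0.53. Among the 4 genes, AT2G40980 and AT2G26110 were closest, at 0.15, and AT5G14910 and AT4G33540 farthest apart, at 0.54. All 3 probes nearest to AT2G40980 and all 3 nearest to AT2G26110 lay where local medians in numbers 5 and 6 were high, at 0.36 for HEMA3, 0.40 for AT5G55580, 0.43 for AT2G47360 and 0.29 for AT1G24040. The local medians of the other probes named were below 0 in these numbers, from −0.22 for AT4G16060 to −0.03 for AT5G56850.

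The 2 lists, of metallo-beta-lactamase fold genes and of genes of heavy metal handling, held AT4G33540 and AT5G14910, which were placed there without an annotation in the gene table to bear it out. Only 2 of 7 loci in the first list and 2 of 16 in the second could be tested. Each list thus gave 1 further tested gene, which cannot stand for genes of its kind. The lists were not complete, and CUTA, called higher at 0.51, was in neither of them. In the metallo-beta-lactamase fold list GLX2-1, a glyoxalase II-like protein, was at 0.07 ± 0.11 (SE, limma adjusted p = 0.68). In the heavy metal list CCS, the copper chaperone of superoxide dismutase, was at −0.05 ± 0.19 (SE, limma adjusted p = 0.89). Neither passed, and both changed sign under other scalings. Of the markers for root, guard cell, seed and flower 0 could be tested, so the tissue was not checked.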

How the data were processed

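The authors deposited 1 table of linear intensities, with 3439 probes in rows and 12 samples in columns. What they did to background and scale is not given in the sources used here, and no value was negative. Here intensities were put on the log2 scale, with 0 as missing, and the median of each sample was subtracted. A probe needed at least 3 values per genotype, which left 3279. These were fitted with limma (version 3.58.1, lmFit then eBayes, under R version 4.3.3), without a replicate block. Tests were two-sided, adjusted by Benjamini and Hochberg's method, with a threshold of 0.05. As the labels name no separate plants, the p-values may reflect technical spread alone. Steadiness was tested on same-numbered differences of 3257 probes. The fits were tested on simulated data with independent noise in each sample. The simulated samples lacked the shared deviations of the sample numbers, so error rates under those were not checked. The plots were made using matplotlib (version 3.10.9, Python version 3.11.15).

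The platform annotation and a TAIR10.1 gene table served for names alone, and 690 of 692 single-gene probes matched a locus. Named genes were the 4 genes, those ranked next to them and at the edge of the 10 largest rises, the 3 probes nearest in pattern to each, and tested list genes. The gene table has no descriptions, so a planned search by family words was not made. The 4 genes and the lists were chosen with earlier results of these data known. Equal numbers deviated together across the genotypes (r of 0.23 to 0.42 over probes). Unlike numbers were not compared across the genotypes, so these values do not show that single numbers pair the samples. The labels do not state such a pairing either, and the same-numbered differences assume it. Within a genotype, r was 0.33 to 0.61 for numbers 1 and 2, 3 and 4, and 5 and 6. Alternatives covered the scaling, drift removal along the probe numbers, a pseudocount of 0.1, filters, blocks, averages, weights and omitted samples.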

Additional observations from a re-analysis of the deposited data

How the results depend on the processing

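All 4 genes stayed higher in *psae1* in 18 other fits and 12 omissions of 1 sample. They were chosen for this rise in the same samples, so its direction in these fits was largely set by that choice. These omissions gave 0.52 to 0.66 for AT2G40980, 0.55 to 0.64 for AT2G26110, 0.50 to 0.64 for AT5G14910 and 0.46 to 0.58 for AT4G33540. AT4G33540, at 0.54, was at 0.29 without centring and 0.30 with drift removed over 21 probes. That window, and averages with drift removed, were added after seeing the data.

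Against 748 called probes (391 higher, 357 lower), values without centring gave 1745 (111 and 1634), with 6.36% of calls higher against 52.3%. Quantile normalization gave 243 higher of 592 (41.0%), and a pseudocount 611 higher of 938 (65.1%). Averages of number pairs gave 73 (38 and 35), averages with the replicate block 229 (135 and 94), and averages with drift removed 145 (87 and 58); 0, 3 and 0 of the 4 genes were called in these. The random block gave 189 (135 and 54). Numbers 1, 3 and 5 alone gave 43 (22 and 21), with 0 of the 4 genes called, numbers 2, 4 and 6 alone 33 (17 and 16), with 1 of the 4, and the omission of numbers 1 and 2 gave 393 (226 and 167). With all 12 samples and the replicate block, 931 were called and all 4 genes kept their size and call. Omitting 1 sample gave 610 to 761 calls.

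Probes that passed among number pairs fell to 288 from 1587 with drift removed, and to 49 with the window of 21 probes. The range among pairs was then 0.12 for AT2G40980, 0.39 for AT5G14910 and 0.45 for AT4G33540, and with 21 probes 0.17, 0.22 and 0.57, with 0.58 for AT2G26110; none of these passed. Leaving out 1 number gave 424 to 1493 probes, and ranges of 0.46 to 0.55 for AT2G40980, 0.62 to 0.79 for AT2G26110, 0.56 to 1.23 for AT5G14910 and 0.40 to 0.47 for AT4G33540.

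With 1 number left out, odd minus even ran from −0.00089 (without 1 or 2) to 0.14 for AT2G40980 and from −0.021 (without 3 or 4) to 0.13 for AT4G33540, and 0 to 8 probes passed. GLX2-1 was at −0.18 without centring, −0.096 with drift removed, singly or averaged, −0.087 with 21 probes, −0.052 with array weights and −0.12 without numbers 5 and 6. CCS was at 0.025 after cyclic loess normalization, 0.041 with a pseudocount, 0.038 in numbers 2, 4 and 6 alone, 0.10 with array weights, 0.12 without numbers 5 and 6, and from −0.14 to 0.059 with 1 sample left out. Some of these fits held fewer samples, and the cause of the changes was not tested.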
